A study of Homo sapiens with 6 samples.

Results

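The transcript models described here each lack introns at the start or the end of a RefSeq transcript while using none but its introns. They come from a merged transcript assembly of EndoC-βH1, an established line of human insulin-producing cells. The assembly holds reference models, which repeat a RefSeq transcript intron for intron, and joined models, whose intron chain shares junctions with a RefSeq transcript without matching it as a whole. Members were chosen by their introns: the whole chain of the joined model had to be a consecutive run of introns of 1 reference model of the same locus, with introns missing at the start, at the end or at both. On chromosomes 1 to 22 and X, 297 of 4907 joined models met this rule (6.05%, Clopper-Pearson 95% interval 5.4 to 6.76, counting error only), out of 55083 models in the whole assembly. The reference model with the longer intron chain is called the container below. Since the chain itself chose the members, their missing introns are a description. The rule did not use outer ends, terminal exons, reading frames or splice sites directly. It did take joined models alone, and whether that class depends on terminal exons was not examined.

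The series has 6 libraries of these cells, all transduced with a lentiviral short hairpin RNA (shRNA) construct aimed at the promoter of the insulin gene. In 3 libraries the shRNA was induced with doxycycline at 1 mg/mL over 7 days, and 3 negative control libraries received no doxycycline. The assembly merges all 6 libraries and gives exon positions without abundance, so no member could be assigned to a library or a group, and sequencing depth is unknown. No difference between induced and control cells was therefore tested for any member.

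A gene can give a shorter transcript at its 3′ side when the RNA is cleaved and polyadenylated within an intron of the longer form, so that the exon before that intron runs on into it as a composite terminal exon. At the 5′ side, a promoter inside an intron gives a first exon that runs up to the next splice donor of the longer form. Short forms of the first kind can lack carboxy-terminal protein domains, and those of the second kind amino-terminal domains.

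The splice sites that the members read through are shown first, because these are the positions at which the models part from their containers. Each sequence has 30 bases of GRCh37 on the transcript strand, 5′ to 3′. At ends, the capitals mark the first 2 bases of the container intron into which the exon continued.
DMD, chrX:31196766-31196795, minus strand: acatggaaacGTgagtagtagcaaaagcag
GUCY1A3, chr4:156643335-156643364, plus strand: caacttacagGTagtaattatgttaaacac
STRADA, containers NM_001003787 and NM_001003788, chr17:61781681-61781710, minus strand: cggatgccagGTatccctgctggcctgggc
CEP70, chr3:138218932-138218961, minus strand: acctccagagGTatttgttttaaaagttta
AASDH, chr4:57215409-57215438, minus strand: attgtggtggGTaagtttttgaatttgagg
TRPM3, chr9:73399001-73399030, minus strand: aagaaggcggGTaggtaactttccaggccc
ZNF286B, chr17:18576258-18576287, minus strand: cgagaggagaGCgcgagaaccccagccgcg
The first 6 carry the GT of a standard intron. The ZNF286B site begins with GC, and this was the only 1 of 236 members lacking introns at the end whose site had no GT. Members of a gene can share a site. At starts, the capitals mark the last 2 bases of the container intron from which the first exon emerged.
AIFM1, chrX:129271491-129271520, minus strand: ttcttaatgttctttttcAGatatatgaaa
PIK3CB, chr3:138426122-138426151, minus strand: aaattatttgcatgttttAGatgaactcga
RIF1, chr2:152266908-152266937, plus strand: tcttccggttcgggcctcAGggtggccgac
In all 61 members lacking introns at the start this 3′ site ended in AG.

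Poly(A) signals near the ends are shown for models that stop inside a container, since this is the motif that directs cleavage. Capitals mark the signal.
CEP70, 21 bases before the end, chr3:138218726-138218755, minus strand: aggggtgaaATTAAAgactttcaaaactta
AASDH, 28 bases before the end, chr4:57215126-57215155, minus strand: atAATAAAatgtgttgctgtatcacaaata
TRPM3, 22 bases before the end, chr9:73398778-73398807, minus strand: acacggatAATAAAaagggtgaggaaaaga
TRPM1, 24 bases before the end, chr15:31361593-31361622, minus strand: tgttaaAATAAAatttagctgtgttccaaa
In DMD and GUCY1A3 neither AATAAA nor ATTAAA lies in the last 50 bases, so no signal is shown for them.

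The members belonged to 247 gene names, which is 1.15% of the 21400 names with a multi-exon reference model and 9.28% of the 2663 names with any joined model. Of these genes, 213 had 1 member, 26 had 2 and 5 had 3. STRADA had 4, GUCY1A3 had 5 and DMD had 8. Chromosome 1 held the most members, 28 of its 508 joined models. The X chromosome held 22 of 234 joined models (9.4%), of which 8 were the DMD models, and chromosome 4 held 21 of 197 (10.7%), of which GUCY1A3 had 5 and AASDH and RUFY3 had 3 each. Chromosome 13 held 8 of 76 (10.5%). Chromosomes 7 and 10 held 6 each, 2.34% and 2.55% of their joined models.

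In 236 members (79.5%) the missing introns lay at the end of the container, in 61 (20.5%) at its start, and in 0 at both. The count of 0 among 297 has an upper 95% bound of 1.23%. A single intron was missing in 160 members (53.9%), 2 in 30, 3 in 23 and 4 or more in 84. The number missing ranged from 1 to 33 around a median of 1, and the number kept from 1 to 69 around a median of 7. The median member kept 80% of the introns of its container, and 42 members (14.1%) kept under 50%. A single intron was missing in 41 of the 61 models shortened at the start (67.2%) and in 119 of the 236 shortened at the end (50.4%). These shares describe what the rule selected and were not tested. The container was the single reference model holding the chain for 267 members (89.9%), and it carried a protein-coding accession for 255. It was the nearest reference named in the assembly for 122 (41.1%).

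**Figure D1:**
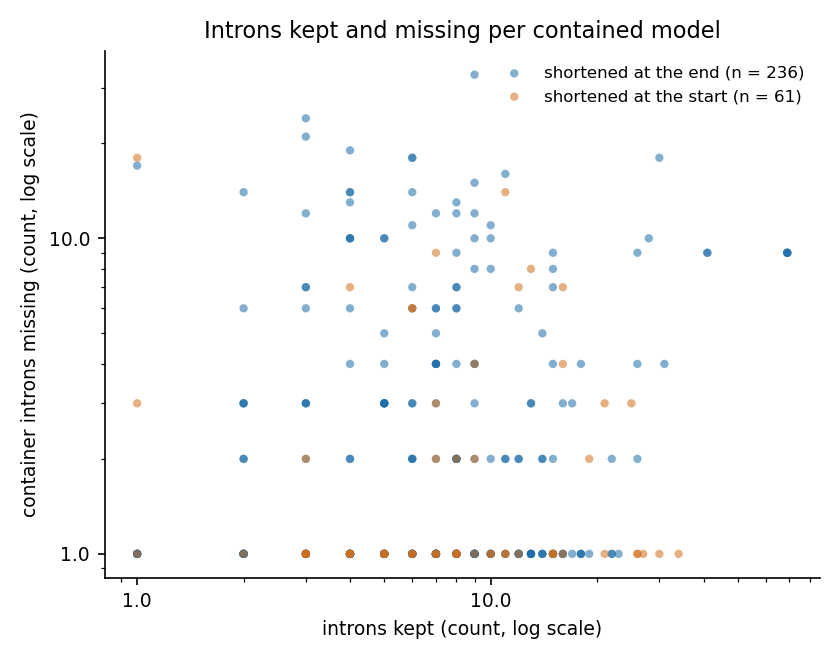
Introns kept in each member (horizontal, count, log scale) against container introns missing (vertical, count, log scale), 1 point per model, darker where points overlap. Most points lie on the line of 1 missing intron; 4 points at 69 kept and 9 missing introns coincide and are DMD models, and the highest point is DNHD1 with 33 missing.

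The outer ends of the members were reference ends. Both ends matched the outer end of some reference model of the locus to the base in 296 of 297 members (99.7%), and in 4597 of the 4610 joined models outside the rule (99.7%). The exception among the members was CREBZF, a gene for a basic leucine zipper protein, whose first exon began at no reference start. On the side that was not shortened, 282 members (94.9%) ended exactly where their container ended. On the shortened side, the whole terminal exon was identical to the terminal exon of another reference model in 263 members (88.6%), a model called the donor below. The donor also had the intron next to that exon in 255 of the 263, and it had introns that the member lacked in 232. It bore the gene name of the container in 253. Most members can thus be written as the chain of 1 RefSeq transcript up to an exon and the terminal exon of a second RefSeq transcript of the same gene. How the assembler arrived at such chains was not tested.

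In the other 34 members no terminal exon of another reference model was identical, and 21 of them were shortened at the end and 13 at the start. For 11 of these, another reference model with the same outer end had a single exon. The reference sharing the outer end bore another gene name than the container in 8 of the 34, and the donor did so in 10 of the 263. For reading frames below, such a reference stands in as the donor. UBA1, which encodes the ubiquitin-activating enzyme E1, began its model at the start of INE1, a single-exon non-coding gene. PCSK6, a proprotein convertase of the secretory pathway, began at the start of LOC100507472, and BRD1, a bromodomain protein of histone acetyltransferase complexes, at that of LOC90834. ZNF286B, a zinc finger gene, ended at the end of FOXO3B. In TSNAX-DISC1, 3 members of the read-through transcripts ended in terminal exons of DISC1.

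In every one of the 297 members the terminal exon on the shortened side ran beyond the container exon it overlapped. Members had to be classed as joined, so the selection itself may have fixed this count. The overhang ranged from 202 to 10020 bases around a median of 520. In 221 members (74.4%) the exon stopped inside the first missing intron, in 67 (22.6%) it ran across at least 1 whole container intron, and in 9 (3.03%) it ran past the outer end of the container. On the shortened side, 47 members shortened at the end and 14 shortened at the start ended exactly where the container ended. Shortened therefore refers to the intron chain and not to length. The terminal exon had a median of 744 bases, and the container exon at the same place had a median of 153. Overhangs at ends had a median of 620 bases, and those at starts ranged from 204 to 2497 bases around a median of 339. The shortest overhangs were 202 bases in TAGAP, a GTPase-activating protein of lymphocytes, and 204 bases in MGAT5B, a glycosyltransferase, both chosen after their values were seen.

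No member had an overhang of 200 bases or fewer. To see whether the reference models offered shorter ones, every join of a reference chain with the terminal exon of another reference model that shares the intron next to that exon was enumerated. Chains that are already reference chains were left out. The division at 200 bases was set after the values were seen. With an overhang of up to 200 bases, 350 joins were possible, 153 at ends and 197 at starts, and 0 were in the assembly. With an overhang over 200 bases, 1028 were possible and 258 (25.1%) were in the assembly. At ends this was 211 of 756 (27.9%), and at starts 47 of 272 (17.3%). In the class from 151 to 200 bases, 0 of 39 possible joins at ends and 0 of 61 at starts were present. In the next class, from 201 to 250 bases, 15 of 43 (34.9%) and 13 of 67 (19.4%) were present. In the classes above, the share at ends was 38.2%, 39.4%, 25.4% and 20.7%, the last over 1000 bases. At starts it was 12.8%, 18.3%, 16.3% and 18.2%. Of the 297 members, 255 were among the enumerated joins on the side of their assigned container and 42 were not. A further 3 joins, in TMEM8B, CLRN1 and SDK1, are members whose assigned container is shortened on the other side. The cause of the step at 200 bases was not tested, and no source used here gives the settings of the assembler.

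**Figure D2:**
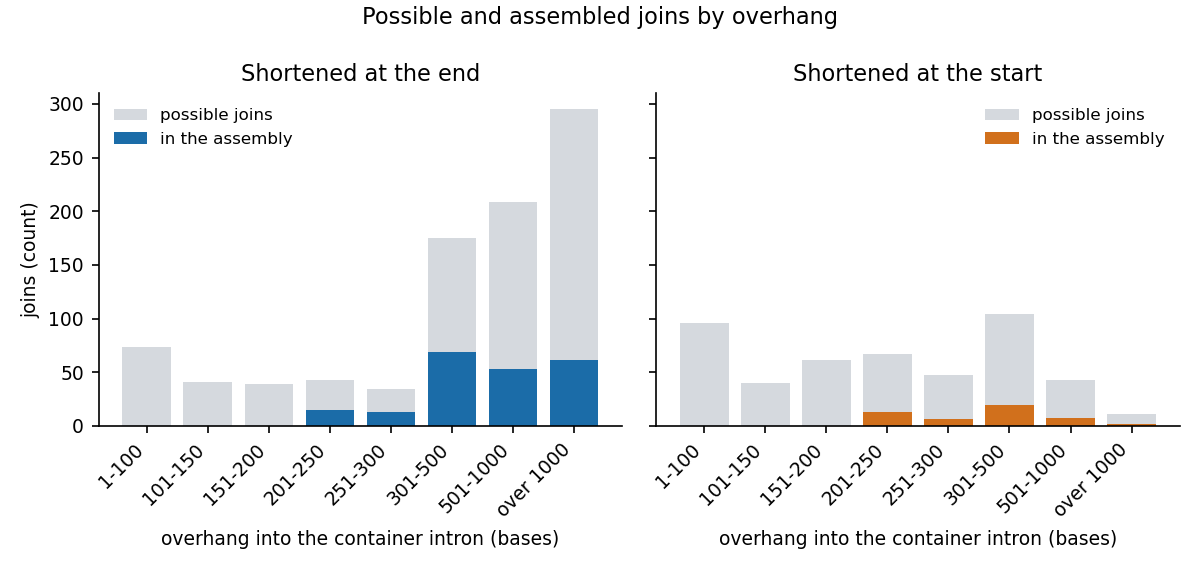
Joins that the reference models allow (grey bars) and those present in the assembly (coloured bars), as counts, by the number of bases the terminal exon reaches into the container intron, for models shortened at the end (left) and at the start (right). Coloured bars are absent in the 3 classes up to 200 bases and present in every class above.

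The possible joins were also counted by terminal exon and by gene, and evenness between genes was not tested. At ends, 158 terminal exons had 2 or more possible joins over 200 bases: in 14 all were in the assembly, in 56 some and in 88 none. At starts the same counts for 55 first exons were 2, 9 and 44. The genes with 3 or more members were picked by that count. For DMD, 8 of 8 possible joins were present. For GUCY1A3 it was 5 of 5, for STRADA 4 of 4, and for CEP70, AASDH, MRS2 and RUFY3 3 of 3 each. In TSNAX-DISC1, which also had 3 members, it was 3 of 15. Among genes with 2 members, LRRC75A-AS1 had 2 of 9 possible joins, OPRM1 2 of 6 and MIER1 2 of 5, genes chosen after their values were seen.

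DMD, which encodes dystrophin, the protein that links the cytoskeleton of muscle fibres to the extracellular matrix, had the most members. All 8 lay on the minus strand and shared a terminal exon of 611 bases at chrX:31196312-31196922. This is the last exon of NM_004019, the shortest dystrophin transcript. The exon reached 474 bases into the container intron. Of the 8 containers, 4 are full-length forms with different first exons, 2 are retinal forms and 1 is the Schwann cell form. The members of the full-length forms kept 69 introns and lacked 9, those of the retinal forms kept 41 and lacked 9, and that of the Schwann cell form kept 15 and lacked 9. The eighth, contained in NM_004023, kept 26 and lacked 4. The longest reading frame of the muscle full-length model, contained in NM_004006, was 3408 amino acids against 3685 in its container. The frames of the other full-length models were 3400 against 3677, 3404 against 3681 and 3285 against 3562 amino acids. Those of the retinal forms were 2067 against 2344 and 2064 against 2341, and that of the Schwann cell form was 693 against 970 amino acids. In all 8 the frame stopped without a residue beyond the part shared with the container. NM_004019 itself encodes 340 amino acids. No DMD member had its chain in GENCODE, a second transcript annotation.

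GUCY1A3 encodes the alpha subunit of soluble guanylate cyclase, the receptor for nitric oxide. Its 5 members shared the terminal exon at chr4:156643190-156643721, plus strand, which reached 377 bases into the last container intron. Each kept 7 to 9 introns and lacked 1. In 4 of them the frame was 624 amino acids against 690 in the container, and it was identical to that of the donor, NM_001130687. In the fifth it was 389 against 455. The members thus carried the short carboxy terminus of the donor on 5 different 5′ chains.

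STRADA encodes a pseudokinase that activates the kinase LKB1. Its 4 members shared a terminal exon at chr17:61780192-61781942, minus strand, that crossed 2 whole container introns and ended at the end of NM_153335. The overhang was 1509 bases in 2 members and 1600 in the other 2. Frames were shorter in the former, 385 against 431 and 327 against 373 amino acids, and longer in the latter, 341 against 299 and 356 against 314. They had 18 residues beyond the shared part in the former and 48 in the latter. The same terminal exon therefore went with a shorter or a longer frame depending on the container.

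CEP70, a centrosomal protein, had 3 members ending at chr3:138218726-138219066, with an overhang of 226 bases and 2 missing introns. Their frames were 534 against 577, 536 against 579 and 402 against 445 amino acids, with 4 residues after the shared part. AASDH, a member of the acyl-CoA synthetase family, had 3 members ending at chr4:57215126-57216224 with an overhang of 303 bases and 4 missing introns. Their frames were 688 against 945, 741 against 998 and 356 against 613 amino acids, with 11 residues after the shared part. In both genes the members differed at their 5′ chains and shared their carboxy terminus. These 2 genes come first by symbol among the 5 with 3 members. Of the others, RUFY3 had an overhang of 305 bases and frames of 464 against 487, 446 against 469 and 393 against 567 amino acids. MRS2, a mitochondrial magnesium channel, had an overhang of 429 bases and frames of 411 against 446, 358 against 393 and 117 against 152, the last in a non-coding container. In TSNAX-DISC1, whose containers are non-coding, the frames were 378, 502 and 502 against 617 amino acids.

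**Figure D3:**
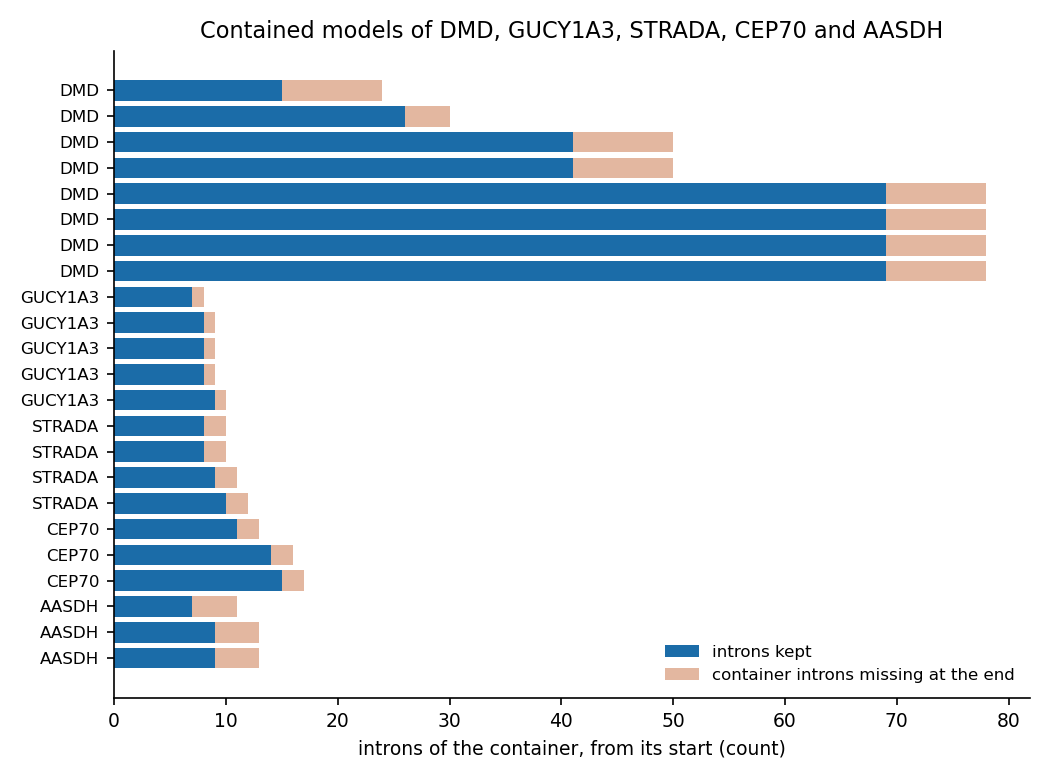
Introns kept (blue) and container introns missing at the end (light) for each of the 23 members of DMD, GUCY1A3, STRADA, CEP70 and AASDH, counted from the start of the container. Bars of 1 gene differ in length with the container, while the number missing is 9 in all DMD models but 1, and equal within each of the other 4 genes.

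The 6 end-shortened members that lacked the most introns had containers of 23 to 48 introns, since only a long chain can lose many. DNHD1, a protein with a dynein heavy chain domain, kept 9 of 42 introns, and its frame was 614 against 4753 amino acids. TRPM1, a cation channel of retinal bipolar cells, kept 3 of 27 introns with a frame of 158 against 1625 amino acids. ANO7, of the anoctamin family, kept 3 of 24 introns (180 against 933). ZMYND8, a chromatin reader, kept 4 of 23 (134 against 1214), and CNOT1, the scaffold of the CCR4-NOT deadenylase complex, kept 30 of 48 (1546 against 2371). TRPM3, a calcium-permeable channel of beta cells that responds to steroids, kept 6 of 24 introns at chr9:73398778-73736514, with a frame of 383 against 1707 amino acids and no residue beyond the shared part. The frames of these 6 models thus ended after 134 to 1546 amino acids, in proteins of 933 to 4753.

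At the start, PCSK6 kept 1 of 19 introns, and its longest frame of 152 amino acids was that of the non-coding LOC100507472 and not part of the convertase. UBA1 kept 11 of 25 introns, and its frame of 520 amino acids was the carboxy-terminal stretch of the 1058 in the container. PIK3CB, the beta catalytic subunit of phosphoinositide 3-kinase, kept 13 of 21 introns and 599 of 1070 amino acids, again from the carboxy terminus. BRD1 kept 4 of 11 introns and the last 143 of 1058 amino acids. AIFM1, the mitochondrial apoptosis-inducing factor, kept 7 of 16 introns, and its frame of 274 amino acids was identical to that of the donor NM_001130846.

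The overhang was longest in 4 end-shortened members. STON2, an endocytic adaptor, reached 10020 bases beyond the container exon, ABL2, a tyrosine kinase, 9881 bases, and AMER2, a regulator of Wnt signalling, 9160 bases. ZNF286B reached 7042 bases. The frame of AMER2 was 671 against 552 amino acids and identical to that of its donor, and that of ABL2 was 1146 against 1043 and identical to no reference frame. The frame of STON2 was 905 against 920 and identical to that of its donor. The frame of ZNF286B, 295 amino acids, was that of FOXO3B and not of the zinc finger protein with 522. At the start, BRD1 reached 2497 bases, CREBZF 2265 bases across 3 introns, SH2B1, an adaptor of insulin receptor signalling, 2255 bases and PCSK6 1979 bases. SH2B1 kept the container frame of 683 amino acids whole.

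Reading frames were compared for the 255 members with a coding container. The frame of the member was the shorter in 186 (72.9%), equal in 39 (15.3%) and longer in 30 (11.8%), and its median was 90.4% of the container frame. The side on which introns are missing largely sets which codon of the container can be kept. The counts by side below are therefore a description. Of 202 members shortened at the end, 162 (80.2%) had a shorter frame, 178 (88.1%) kept the start codon of the container but used another stop, and 188 (93.1%) combined the start codon of the container with the stop of the donor. Of 53 members shortened at the start, 24 (45.3%) had a shorter frame and 23 (43.4%) an equal frame, and 24 (45.3%) kept the stop with another start codon. The median frame was 87.5% of that of the container at ends and 100% at starts.

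Exons that crossed whole introns went with smaller changes. Among end-shortened members with a coding container, the median frame was 100% of the container frame in the 40 whose exon crossed whole introns and 83.7% in the 161 whose exon stopped inside the next intron. Of the 50 end-shortened members of the first kind, 47 ended at the outer end of the container itself. The first crossed intron had a median of 408 bases, against 3659.5 bases in the 182 members that stopped inside an intron.

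**Figure D4:**
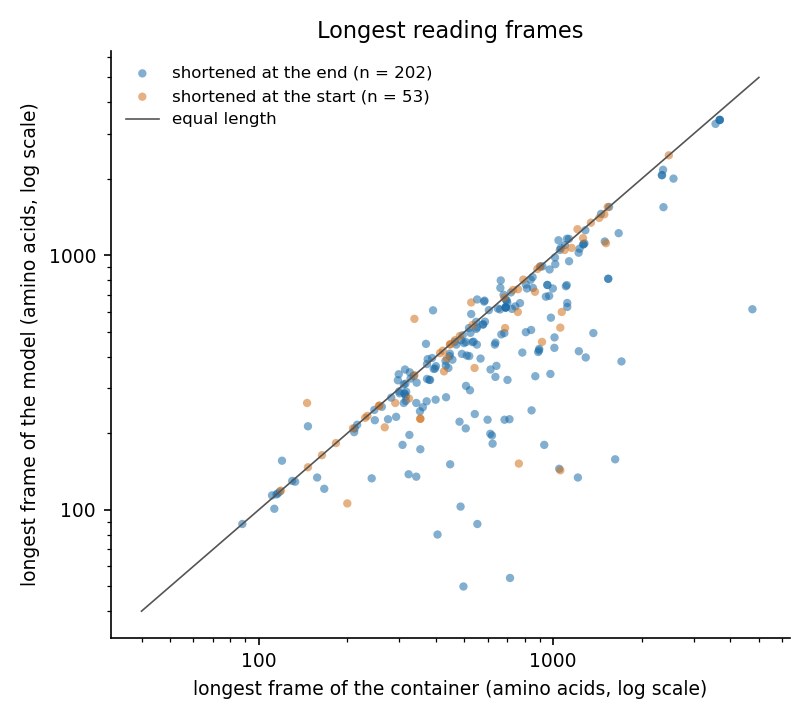
Longest reading frame of each member (vertical, amino acids, log scale) against that of its container (horizontal, amino acids, log scale) for 202 models shortened at the end and 53 shortened at the start, with the line of equal length. Most points lie on or below the line, and the points farthest below it include DNHD1 at 614 against 4753 and ZNF585A at 54 against 714.

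The frame of 97 members (38%) was identical to that of some reference model of the locus. This was 71 of 202 at ends (35.1%) and 26 of 53 at starts (49.1%). At ends, 131 members had a frame found in no reference model of the locus, and 120 of these combined the start codon of the container with the stop of the donor. After the part shared with the container from the start these 131 frames had a median of 15 further residues and a range of 0 to 495, with ABL2 the highest. These residues need not all differ from the container. In ABL2, 393 residues counted back from the stop were again those of the container, and in GAREML 180 of 313 were. With the nearest reference of the assembly as the yardstick for both, 102 of 259 members (39.4%) and 1714 of 4047 other joined models (42.4%) repeated a reference frame. An early stop, more than 50 bases before the last junction, was present in 8 of 259 members (3.09%) and in 426 of 4047 other joined models (10.5%). Against the assigned container the count was 6 of 255: ZNF585A at the end, and LGALS3, PCSK6, SLX1A-SULT1A3, SLX1B-SULT1A4 and TK2 at the start. These 6 are all that had one and were not picked by size. They were 1 of 202 members at ends (0.495%) and 5 of 53 at starts (9.43%, 95% interval 3.13 to 20.7). The low share was thus found at ends alone. The share at starts was near the 10.5% of other joined models, though that was counted with the nearest reference.

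The 4 smallest frames relative to the container were found at ends. The zinc finger gene ZNF585A had 54 against 714 amino acids (7.56%), followed by TRPM1 at 9.72%. C8orf44-SGK3, a read-through of the kinase gene SGK3, had 50 against 496 (10.1%), and ZMYND8 was at 11%. In ZNF585A and C8orf44-SGK3 the frame shared 1 residue with the container frame from the start and 0 from the stop. Their percentages thus compare lengths alone and do not describe a remnant of the container protein. TRPM1 shared 93 of its 158 residues from the start and ZMYND8 131 of 134. The longest frames that equalled their container were RIF1, a regulator of replication timing and DNA repair, with 2472 amino acids, NFAT5, the transcription factor of osmotic stress, with 1549 and 1455 in its 2 members, and ABCC11, a membrane transporter, with 1344. RIF1 and ABCC11 were shortened at the start and NFAT5 at the end, and each kept the start codon and the stop of its container.

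Further members, in genes of receptors, a transcription factor and a neurotrophin, were picked after their values were seen. Not all of them have a shortened frame. In THRA, the thyroid hormone receptor alpha gene, the frame was 410 against 490 amino acids and identical to that of its donor NM_199334. In PPARD, a lipid-sensing nuclear receptor, the frames were 361 against 441 and 263 against 343, and the former was that of the donor. ATF2, a stress-responsive transcription factor, had 2 members with 209 against 505 and 151 against 447 amino acids. GRIK4, a kainate receptor subunit, had 2 members with the donor frame of 765 amino acids against 956. OPRM1, the mu opioid receptor, had 2 members with 485 against 493 and 292 against 300, with 4 residues after the shared part. GRIA4, an AMPA receptor subunit, had 2 members shortened at the start, and both kept the container frame, of 902 and 884 amino acids. BDNF, a neurotrophin, had 1 member whose exon crossed an intron of 234 bases and whose frame of 247 amino acids equalled that of the container.

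In GENCODE release 44 the exact intron chain of 36 members (12.1%) was present, against 299 of 4610 joined models outside the rule (6.49%) and 88.2% of the multi-exon reference models. Members had shorter chains, with a median of 7 introns against 11 in the joined models outside the rule. What part this has in the 2 shares was not tested. Of the members, it was 23 of 236 at ends (9.75%) and 13 of 61 at starts (21.3%). GENCODE labels 25 of these chains protein-coding, 5 long non-coding, 4 retained intron and 2 as protein-coding genes without a defined coding sequence. Among the first by position were CAMTA1, a calmodulin-binding transcription factor, C1orf213, LOC101929282, RIF1 and KLF7, a Krüppel-like transcription factor. CAMTA1 kept a frame of 65 amino acids in a non-coding container, and the frame of C1orf213 was 110 against 98. That of LOC101929282, a non-coding gene, was 45 against 46, and KLF7 kept 230 amino acids.

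At the ends of the 236 end-shortened members, AATAAA or ATTAAA on the transcript strand lay in the last 50 bases of 157 (66.5%). Members of a gene can share an end, and over the distinct ends the count was 134 of 195 (68.7%). Over all distinct multi-exon reference ends the share was 17535 of 23399 (74.9%). In the 189 members that ended apart from their container, 120 (63.5%) had a signal, and 159 of their containers (84.1%) did. Since these are reference ends, the figure describes which RefSeq ends the members carry. A missing match says only that these letters were not in that window.

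Splice sites that were read through were scored with a position matrix built from all 218368 distinct reference introns, in bits, higher being closer to the common sequence. At ends, the 5′ site passed had a median of 7.08 bits, the median over the 5′ sites that each member used was 8.36 bits, and all reference 5′ sites had a median of 8.19 bits. The passed site scored below the median of the used sites in 162 of 236 members (68.6%). Members of a gene can share a passed site, so these are not distinct sites. The lowest passed site was the GC site of ZNF286B at -4.86 bits. At starts, the 3′ site passed had a median of 8.69 bits and the used sites 8.73, against 8.59 bits for all reference 3′ sites, and 33 of 61 lay below. In DMD the passed site scored 7.08 bits against 8.05 in the muscle full-length model. The first missing intron was longer than the median intron of the container in 153 of 297 members (51.5%).

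**Figure D5:**
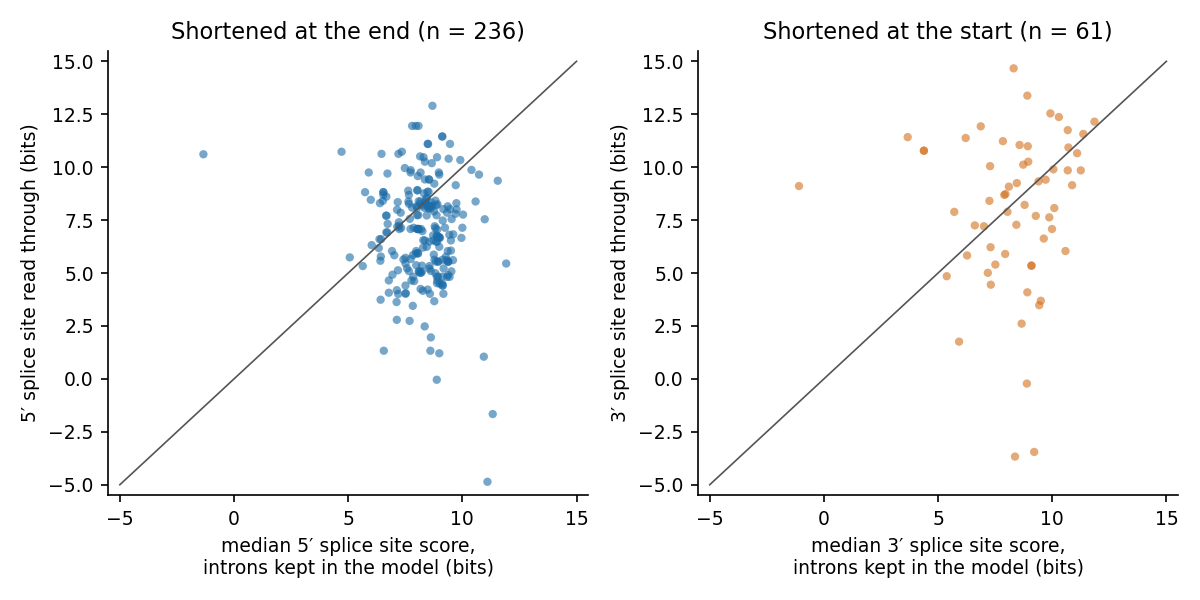
Score of the splice site read through (vertical, bits) against the median score of the sites used by the same model (horizontal, bits), 1 point per member, with the line of equal score. At ends (left, 5′ sites) 162 of 236 points lie below the line; at starts (right, 3′ sites) 33 of 61 do.

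For starts, the density of CpG pairs from 250 bases before to 50 after the start was compared, as the ratio of observed to base-composition count. In the 47 start-shortened members that began apart from their container, the median ratio was 0.392. Their containers had a median of 0.773, and all distinct multi-exon reference starts had 0.692. In the start-site group of their container were 17 of 61 start-shortened members (27.9%) and 224 of 236 end-shortened members (94.9%). This follows largely from the side shortened, since 221 of the 236 began exactly where their container began. It is no separate evidence on promoters. The 100 bases before the starts of AIFM1 show the difference in CpG pairs, with CG pairs in capitals.
AIFM1, before the member, chrX:129272016-129272115, minus strand: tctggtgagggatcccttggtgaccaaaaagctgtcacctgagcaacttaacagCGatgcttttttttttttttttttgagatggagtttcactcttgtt
AIFM1, before the container, chrX:129299862-129299961, minus strand: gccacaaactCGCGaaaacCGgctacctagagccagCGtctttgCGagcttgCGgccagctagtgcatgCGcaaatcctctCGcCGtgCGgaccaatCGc
The window before the member held 1 CG pair and that before the container 11. UBA1 had 1 and 7, KLF7 had 6 and 17, PIK3CB had 0 and 0, and BRD1 went the other way with 5 and 0.

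Gene families were counted by symbol. Solute carriers had a member in 6 of 389 multi-exon names (1.54%), zinc finger genes in 6 of 641 (0.936%), ion channels in 3 of 176 (KCNH6, TRPM1 and TRPM3) and small GTPases and their regulators in 3 of 228. Ubiquitin genes had 4 of 332, mitochondrial genes 3 of 199, the listed kinase families 1 of 196 (MAPK10), the listed chromatin families 1 of 68 (BRD1) and the listed splicing families 0 of 105. These lists go by the start of the symbol and are partial: chromatin proteins outside them, such as SETDB1, EHMT2 and ZMYND8, also had members. Fused names of read-through transcripts had 7 of 121 (5.79%), beside 1.15% of all names. A joined model of some kind was present in 61 of the 121, so 7 of 61 had a member. Among all names with a joined model the share was 9.28%. Names starting with LINC or LOC or ending in -AS and a number had 9 of 2532 (0.355%), a list that leaves out other non-coding genes with a member, such as BDNF-AS and MIR22HG. Only 78 of these 2532 had a joined model, so 9 of 78 had a member, beside the same 9.28%. Of 144 beta cell genes, covering transcription factors, granule proteins, excitability, glucose sensing, endoplasmic reticulum stress and diabetes loci, TRPM3 alone had a member (0.694%), near the 1.15% of all names. A joined model of some kind was present in 31 of the 144, so that 1 of 31 had a member, beside 9.28% of all names with a joined model, and nothing particular to beta cell genes can be read from these counts. Joined models outside the rule had a median of 11 introns and members 7, and their loci had medians of 5 and 4 reference models. Families differ in reference models per locus, and what part this has in their counts was not tested.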

How the data were processed

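Full-length cDNA of 3 induced and 3 control libraries was sequenced, per the labels' protocols. The submitters' processing notes name TopHat2, Cufflinks and the build hg19, and the settings are not given in the sources here. The authors deposited 1 merged assembly, whose other values, per the file columns, are the first and last base of each exon, and which has no level of any library. Depth and replicate spread are therefore unknown, and no p-value was computed.

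Models were rebuilt in Python (3.11.15), with pysam (0.24.0) for sequence, scipy (1.17.1) for intervals and numpy (2.4.6), and the containment rule was checked on invented models. The container was the reference model holding the chain with the fewest introns left over. Sequence came from GRCh37, on which 98.6% of reference introns were GT-AG. The longest frame runs from ATG to a stop on the spliced sequence, and shared residues were counted up to the first that differed. Splice sites were scored over 3 exon and 6 intron bases (5′) or 14 intron bases and 1 exon base (3′). GENCODE release 44 had been mapped to GRCh37. Shares have Clopper-Pearson 95% intervals.

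Named genes were the 6 members per side lacking the most introns, the 4 with the longest overhang, those in beta cell lists, 5 genes with the most members (ties by symbol), the 4 smallest and 4 longest equal frames, and the first 6 in GENCODE. Of the genes this rule names, 2 are not reported here. Members and lists were chosen with earlier results of these data known. Alternatives varied the chromosomes, containers, tolerances, frames and motifs. No column of another sample was left out.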

Additional observations from a re-analysis of the deposited data

How the results depend on the processing

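No paired analysis was possible because the assembly holds no value of any library, and leaving out a replicate was not run for the same reason. Of 29 alternatives, 25 were labelled the same and 4 moved, by a spread whose size is not given here. The labels are thus no measure of robustness. The share with both outer ends at reference ends was 100% with models of at least 3 introns. The share with the chain in GENCODE was 4.38% when both outer ends also had to lie within 100 bases, and 89.6% when a run of a longer GENCODE chain also counted, which also counts members whose container is listed there. The share with a poly(A) signal was 54.2% with AATAAA alone. The number of members was 308 on all sequences, 255 with coding containers alone and 269 with at least 3 introns. All 3 were labelled the same, beside 297 in the main count. The signal share of members ending apart from the container, was added after seeing the data. Depth limits which joins could appear in the assembly, by an amount that is unknown.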
